A study of Homo sapiens with 12 samples.

Results

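Homologous recombination and the Fanconi anemia pathway were followed through 40 genes, chosen by name and all found among the 58395 gene rows of a table of raw read counts. The counts come from RNA sequencing of 3 human leukemia lines with 4 libraries each, 12 in all. Edit-3 (K/VP.5/edit-3) is 1 clone of K/VP.5 made by Cas9 cutting and a single-stranded template, which changed the 5′ splice site where exon 19 meets intron 19 in TOP2A, the gene of topoisomerase IIα. K/VP.5 is a clonal, etoposide-resistant subline of K562, and K562 is the parental line, an established chronic myeloid leukemia line that carries the BCR-ABL fusion. The growth protocol, which names the 3 lines together, gives 0.5 µM etoposide in the medium every other week, and whether K562 received it is not clear from that wording. Since edit-3 and K/VP.5 are 1 clone each, the edit or the resistance and the choice of clone cannot be told apart. The sources do not tie the replicates to separate cultures, so a p-value here measures the spread of these libraries, and part of that spread may be technical.

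Etoposide traps topoisomerase II on cut DNA, and the trapped enzyme leaves double-strand breaks. In homologous recombination, nucleases led by MRE11 and CtIP (RBBP8) trim the ends of a break into single strands, and BRCA1 with BARD1, PALB2 and BRCA2 prepares them, with RAD51B, RAD51C, RAD51D, XRCC2 and XRCC3, for the search for a matching strand. RAD54 and RecQ helicases remodel the joint molecules that form, and nucleases held by the scaffold SLX4 cut what remains. The Fanconi pathway handles crosslinks between the strands: a core complex attaches ubiquitin to FANCD2 and FANCI, and nucleases and recombination finish the repair. Many of these genes are known to be transcribed as cells enter S phase under E2F factors, so proliferating leukemia cells express them.

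Promoter sequences of 35 of the 40 genes, 47 promoters in all, were found in the RefSeq table of the GRCh38.p14 build; NBN, WRN, DNA2, RAD54B and FANCI were not matched. Each runs from 250 bases before to 50 bases after the annotated start, and 4 are shown, 5′ to 3′, with motif matches in capitals. BRCA2 (chr13:32315258-32315557, plus strand) had the largest rise in K/VP.5 over K562. SLX4 (chr16:3611557-3611856, minus strand) had the largest fall in that comparison and the largest rise in edit-3 over K/VP.5. FANCA (chr16:89816598-89816897, minus strand) and BLM (chr15:90717096-90717395, plus strand) were added after their matches had been seen, since they hold several.
BRCA2: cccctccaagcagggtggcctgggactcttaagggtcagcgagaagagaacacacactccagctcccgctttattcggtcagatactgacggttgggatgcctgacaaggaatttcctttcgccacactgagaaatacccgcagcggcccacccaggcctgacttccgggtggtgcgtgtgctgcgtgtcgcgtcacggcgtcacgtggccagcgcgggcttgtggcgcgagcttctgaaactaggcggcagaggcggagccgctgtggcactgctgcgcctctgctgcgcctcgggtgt
SLX4: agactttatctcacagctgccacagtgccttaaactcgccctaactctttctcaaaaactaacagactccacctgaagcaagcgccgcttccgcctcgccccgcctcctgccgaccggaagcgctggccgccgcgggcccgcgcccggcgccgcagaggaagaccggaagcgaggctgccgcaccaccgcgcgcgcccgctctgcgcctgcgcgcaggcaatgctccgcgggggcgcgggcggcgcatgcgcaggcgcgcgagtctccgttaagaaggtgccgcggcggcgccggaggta
FANCA: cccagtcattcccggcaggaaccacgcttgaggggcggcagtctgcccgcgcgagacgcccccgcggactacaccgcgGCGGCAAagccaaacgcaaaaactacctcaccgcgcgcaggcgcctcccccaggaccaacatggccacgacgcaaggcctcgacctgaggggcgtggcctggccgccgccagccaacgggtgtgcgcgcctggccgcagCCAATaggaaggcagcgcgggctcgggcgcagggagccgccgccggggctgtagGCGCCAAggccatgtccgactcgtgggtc
BLM: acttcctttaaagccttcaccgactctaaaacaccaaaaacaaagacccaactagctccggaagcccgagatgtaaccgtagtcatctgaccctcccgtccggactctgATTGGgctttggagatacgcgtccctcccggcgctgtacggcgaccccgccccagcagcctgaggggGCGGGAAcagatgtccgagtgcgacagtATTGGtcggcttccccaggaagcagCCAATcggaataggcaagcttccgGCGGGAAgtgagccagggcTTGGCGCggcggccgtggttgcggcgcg
Capitals mark E2F-type letters on either strand, which are TTCCCGC as the first form, TTGGCGC as the second, TTGCCGC as the third and TTCGCGC as the fourth. They also mark CCAAT on either strand. E2F-type letters stood in 25 of the 47 promoters (53.2%), against 13% of all 35116 promoters in the table and 18.5% of the 15338 promoters of tested genes. Some genes have overlapping promoter windows. By gene, 22 of the 35 held these letters, and the share by gene over all promoters was not counted. CCAAT stood in 38.3% of the genes' promoters, against 34.6% of all and 34.2% of those of tested genes. The cell cycle element CHR (TTTGAA or TTCGAA, either strand) stood in 12.8%, against 16.4% and 11.7%. The median GC content was 63% in the genes' promoters, against 58.7% of all and 64.7% of those of tested genes. The BLM promoter held 3 E2F-type and 3 CCAAT matches and the FANCA promoter 2 and 1, and the BRCA2 and SLX4 windows held none of the 3 motifs. A match describes letters only.

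Library totals ran from 25.3 M to 37.1 M reads, and a member gene had between 94 and 8593 reads in a library. All 40 genes passed the filter on low counts that left 18286 genes for testing. TOP2A, whose count sums transcripts with and without intron 19, had 383 to 437 CPM (counts scaled to library size) in edit-3, 339 to 370 CPM in K/VP.5 and 490 to 543 CPM in K562; its count does not check the splice-site edit. All 10 markers of the K562 lineage had reads in every library. Of 13 markers of other cell types, KRT5 and MS4A1 had 0 reads in all 12 libraries, CDH5 had 1 read in all and CD14 had 0 reads in 1 library; the other 9 had reads in every library. The most abundant were COL1A2 at 5.16 to 2951 CPM, EPCAM at 144 to 352 CPM, PECAM1 at 1.22 to 43.8 CPM and COL1A1 at 0.884 to 21.6 CPM. The summed level of the 8 of these 13 that passed the filter on low counts was 2055 to 3311 CPM in edit-3, 372 to 452 CPM in K/VP.5 and 206 to 225 CPM in K562. Its part in the results below was not tested. In a bulk library, a change in the mix of cells and a change in RNA per cell cannot be told apart.

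Of the 40 genes, 24 passed the test in no comparison. The share of all tested genes that passed in no comparison was not counted, so whether 24 is many or few cannot be told. The changes of the other 16 of the 40 genes were spread over most steps of repair and were largest for SLX4 and BRCA2. In K/VP.5 against K562, 11 genes were higher and 3 lower at an adjusted p under 0.05 in edgeR's quasi-likelihood test, and 26 did not pass. That is 35% of the genes, near the 36.6% of all tested genes called in this comparison (18.3% higher and 18.3% lower). In edit-3 against K/VP.5, 2 genes were higher and 2 lower, and 36 did not pass: 10% of the genes, against 23.6% of all tested genes (12.9% higher and 10.6% lower). In edit-3 against K562, 9 were higher and 4 lower, and 27 did not pass: 32.5%, against 39.2% of all tested genes (20.6% higher and 18.6% lower). The medians over the 40 log2 fold changes were 0.045, 0.025 and 0.10 in these 3 comparisons, against medians of 0.0026, 0.0041 and 0.0045 over all tested genes. The ranges of the 4 and 4 libraries did not overlap for 15, 8 and 15 of the 40 genes, against 37.4%, 26% and 34% of all tested genes. The summed level of the 40 genes was 2218 ± 97.2 CPM in edit-3, 2109 ± 49.5 CPM in K/VP.5 and 1993 ± 73.2 CPM in K562 (SD, n = 4 each). All log2 fold changes below are K/VP.5 over K562, edit-3 over K/VP.5 or edit-3 over K562, and the first and last of these share the K562 libraries, as the first 2 share K/VP.5.

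**Figure D1:**
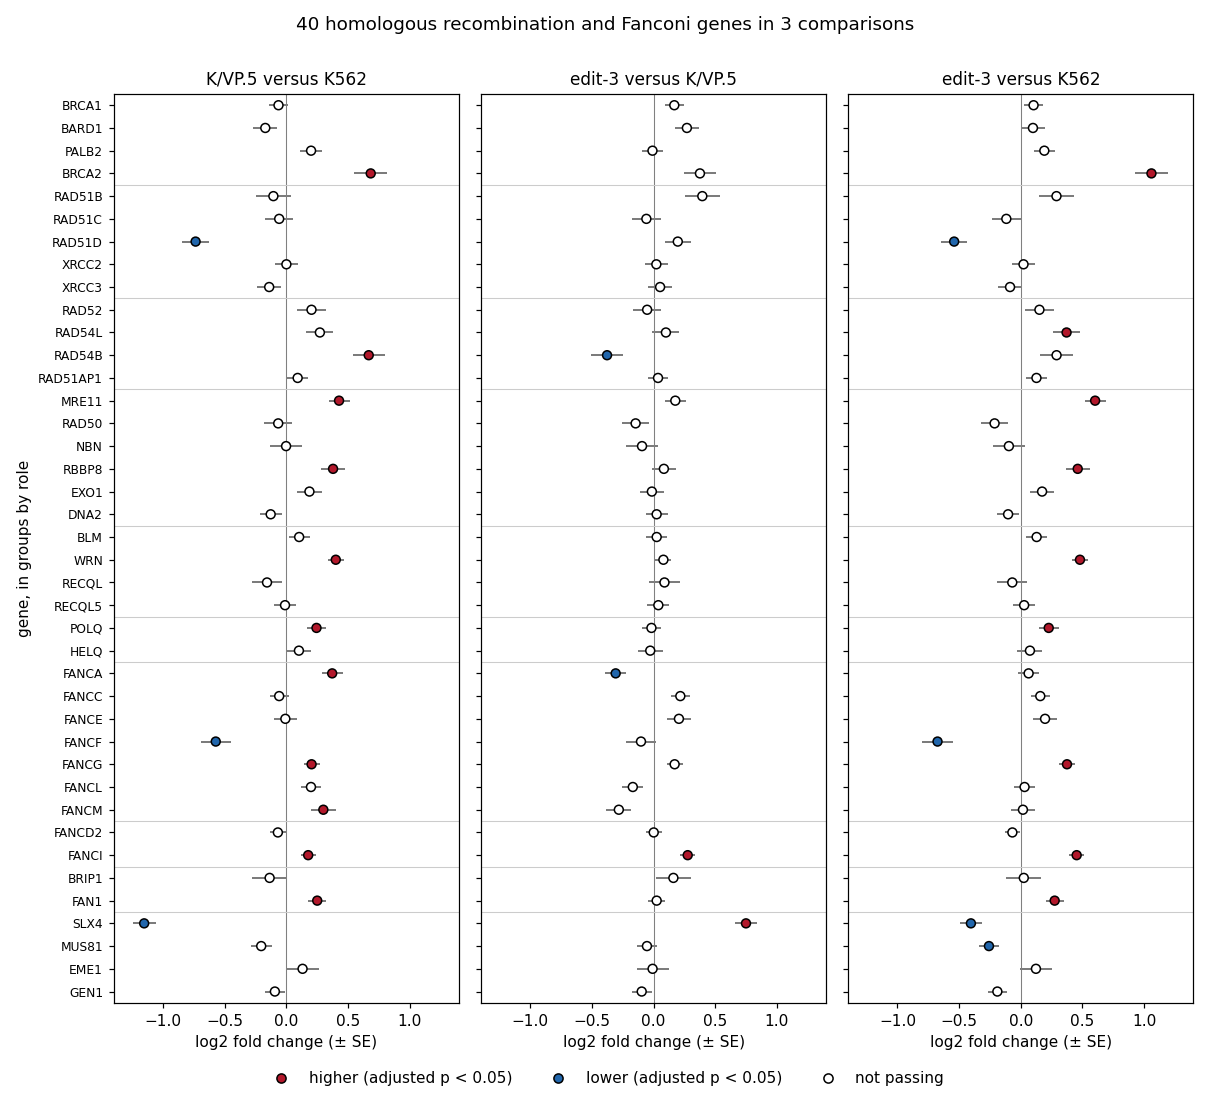
Log2 fold change (± SE) of each of the 40 genes, grouped by role down the page, in K/VP.5 versus K562 (left), edit-3 versus K/VP.5 (middle) and edit-3 versus K562 (right). Filled points passed an adjusted p of 0.05 in edgeR's test, red for higher and blue for lower; SLX4 lies at -1.15 on the left and at 0.75 in the middle, and BRCA2 at 1.06 on the right.

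Among the 4 genes of the BRCA1-BRCA2 axis, BRCA2 was the gene that passed the test, higher in K/VP.5 and in edit-3 than in K562. BRCA2 (chr13:32315474-32400266 in GRCh38, plus strand), which prepares single-stranded DNA for strand exchange, had 68.6, 108, 64.0 and 81.5 CPM in the edit-3 libraries, 57.6, 60.7, 63.3 and 66.6 CPM in those of K/VP.5 and 38.7, 42.9, 36.0 and 36.9 CPM in those of K562. Every edit-3 and K/VP.5 library lay above every K562 library, and the edit-3 and K/VP.5 ranges overlapped. BRCA2 rose 1.61-fold in K/VP.5 over K562 (log2 fold change 0.68, SE 0.134, adjusted p = 9e-04). The rise in edit-3 over K562 was 2.08-fold (log2 fold change 1.06, SE 0.134, adjusted p = 1.6e-05). Edit-3 against K/VP.5 did not pass (log2 fold change 0.38, SE 0.132, adjusted p = 0.054). Edit-3 replicate 2, at 108 CPM, was the highest library; without it that difference was 0.20 and the rise over K562 was 0.89 on the log2 scale.

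BRCA1, the scaffold at the start of this axis, had 132, 151, 126 and 145 CPM across edit-3, 123, 115, 123 and 131 CPM across K/VP.5 and 133, 124, 119 and 138 CPM across K562. Its ranges overlapped in every comparison, and the log2 fold changes were -0.064, 0.17 and 0.10. BARD1, its partner in a ubiquitin ligase, had 19.0, 22.6, 16.6 and 19.1 CPM in the edit-3 libraries, 15.2, 16.2, 16.9 and 16.0 CPM in those of K/VP.5 and 18.4, 16.9, 19.1 and 17.9 CPM in those of K562. The K/VP.5 libraries of BARD1 all lay just below the K562 libraries, at a log2 fold change of -0.17 that did not pass (adjusted p = 0.19). PALB2, the bridge between BRCA1 and BRCA2, had 38.8, 46.4, 34.1 and 40.004 CPM across edit-3, 38.9, 41.4, 39.4 and 40.7 CPM across K/VP.5 and 35.7, 36.3, 34.8 and 32.8 CPM across K562. Every K/VP.5 library of PALB2 lay above every K562 library, but the difference of 0.20 (95% interval 0.015 to 0.38) did not pass after adjustment (adjusted p = 0.086), though it did with only K/VP.5 and K562 libraries in the fit (adjusted p = 0.018). In edit-3 over K/VP.5 BARD1 gave 0.27 (adjusted p = 0.058).

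Among RAD51B, RAD51C, RAD51D, XRCC2 and XRCC3, 5 related proteins that assist strand exchange, RAD51D fell in both sublines against K562 and the other 4 did not pass in any comparison. RAD51D (chr17:35092208-35121522, minus strand) had 14.996, 18.2, 15.4 and 14.0 CPM in the edit-3 libraries, 12.9, 14.9, 14.0 and 12.8 CPM in those of K/VP.5 and 24.4, 23.8, 23.7 and 19.2 CPM in those of K562. All edit-3 and K/VP.5 libraries lay below all K562 libraries, K562 replicate 4 being the lowest of its line. RAD51D was 1.67-fold lower in K/VP.5 than in K562 (log2 fold change -0.74, SE 0.107, adjusted p = 6.7e-05) and 1.45-fold lower in edit-3 than in K562 (log2 fold change -0.54, SE 0.107, adjusted p = 0.00088). XRCC2, the most abundant of the 5 per kilobase, kept close to the same level, at 83.7 ± 10.9 CPM in edit-3, 82.4 ± 7.10 CPM in K/VP.5 and 82.5 ± 3.84 CPM in K562, with a 95% interval of -0.20 to 0.20 for K/VP.5 over K562 on the log2 scale. RAD51B, the least abundant, had 7.66 to 9.68 CPM in edit-3, 5.53 to 7.06 CPM in K/VP.5 and 5.84 to 8.45 CPM in K562, and edit-3 over K/VP.5 gave 0.39 (SE 0.143, adjusted p = 0.06). RAD51C and XRCC3 had log2 fold changes between -0.14 and 0.052 over the 3 comparisons. The values of XRCC3 are uncertain, since 76.7% of its exon bases are shared with KLC1 on the other strand and the strand setting of the counting is not given; KLC1 itself rose in edit-3 over K562 (log2 fold change 0.45, adjusted p = 3.7e-04).

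The RAD52 and RAD54 group, proteins that anneal strands or drive strand exchange, held RAD54B, which rose in K/VP.5 over K562, and RAD54L, which rose in edit-3 over K562 and, with the replicate number as a block, in K/VP.5 over K562. RAD54B, a translocase related to RAD54, had 4.46, 5.61, 4.11 and 4.61 CPM across edit-3, 5.95, 5.74, 6.44 and 6.29 CPM across K/VP.5 and 3.39, 4.23, 3.96 and 3.78 CPM across K562. The K/VP.5 libraries lay above all others, and those of edit-3 and K562 overlapped. It rose in K/VP.5 over K562 (log2 fold change 0.67, SE 0.130, adjusted p = 0.00084). It fell in edit-3 against K/VP.5 (log2 fold change -0.38, SE 0.128, adjusted p = 0.045), but that call was lost in 7 of 8 fits that left out 1 library, all but the one without edit-3 replicate 2 (adjusted p 0.051 to 0.12). RAD54B shares 59.1% of its exon bases with FSBP on the same strand, so its counts are uncertain. RAD54L, the main RAD54 protein, had 57.5, 48.9, 58.8 and 51.3 CPM in the edit-3 libraries, 54.7, 45.6, 55.3 and 46.5 CPM in those of K/VP.5 and 45.5, 39.9, 47.9 and 34.003 CPM in those of K562. It rose in edit-3 over K562 (log2 fold change 0.37, SE 0.110, adjusted p = 0.015), a call lost without K562 replicate 2 (adjusted p = 0.055). In K/VP.5 over K562 it gave 0.27 (adjusted p = 0.069), or 0.28 with the replicate block (adjusted p = 0.0053), and it passed without K562 replicate 3 (adjusted p = 0.034). RAD54L shares 25.1% of its exon bases with LRRC41 on the other strand. LRRC41 averaged 102 CPM in edit-3 and 112 CPM in K562 (log2 fold change -0.14, adjusted p = 0.32), and its part in the RAD54L count was not tested. RAD52 and RAD51AP1 did not pass in any comparison, with log2 fold changes between -0.053 and 0.20.

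Of the 6 end resection genes, MRE11 and RBBP8 rose in both sublines against K562, and RAD50, NBN, EXO1 and DNA2 did not pass. MRE11, the nuclease that opens resection, had 98.1, 123, 94.1 and 104 CPM across edit-3, 89.7, 90.8, 97.9 and 93.4 CPM across K/VP.5 and 71.4, 67.6, 64.0 and 73.6 CPM across K562. RBBP8, whose product CtIP activates MRE11, had 77.0, 80.1, 63.1 and 65.1 CPM in the edit-3 libraries, 68.7, 60.0, 73.8 and 66.8 CPM in those of K/VP.5 and 55.2, 46.9, 55.7 and 49.4 CPM in those of K562. For both genes the edit-3 and K/VP.5 libraries lay above all K562 libraries and overlapped each other. MRE11 gained 1.34-fold in K/VP.5 over K562 (log2 fold change 0.43, SE 0.0853, adjusted p = 0.0011) and 1.52-fold in edit-3 over K562 (log2 fold change 0.60, SE 0.0854, adjusted p = 4.6e-05). RBBP8 gained 1.3-fold in K/VP.5 over K562 (log2 fold change 0.38, SE 0.0966, adjusted p = 0.0063) and 1.38-fold in edit-3 over K562 (log2 fold change 0.46, SE 0.0966, adjusted p = 0.0014). NBN and RAD50, the partners of MRE11 in its complex, gave -0.0028 and -0.067 in K/VP.5 over K562. In edit-3 over K562 they gave -0.10 and -0.21. Neither passed, and the difference between their changes and that of MRE11 was not tested. RAD50 had only 11.3 to 14.4 CPM in edit-3, 13.1 to 15.4 CPM in K/VP.5 and 12.8 to 16.7 CPM in K562, and 79.7% of its exon bases are shared with AC116366.3 on the same strand, so its level is uncertain. EXO1, an exonuclease of long-range resection, averaged 125 ± 14.7 CPM in edit-3, 126 ± 7.70 CPM in K/VP.5 and 111 ± 13.7 CPM in K562. DNA2, the nuclease and helicase of the other long-range branch, averaged 64.7 ± 7.30 CPM in edit-3, 63.6 ± 0.896 CPM in K/VP.5 and 69.5 ± 6.59 CPM in K562.

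WRN was the RecQ helicase that rose in both sublines; BLM, RECQL and RECQL5 did not pass in any comparison. WRN, the helicase and exonuclease lost in Werner syndrome, had 95.1, 93.6, 87.0 and 89.7 CPM across edit-3, 85.3, 86.6, 90.1 and 83.9 CPM across K/VP.5 and 70.9, 66.2, 62.6 and 62.4 CPM across K562. All K562 libraries lay below those of both sublines, which overlapped. WRN rose in K/VP.5 over K562 (log2 fold change 0.40, SE 0.0656, adjusted p = 2e-04) and in edit-3 over K562 (log2 fold change 0.48, SE 0.0656, adjusted p = 3.3e-05). BLM, which takes joint molecules apart without crossovers, had 93.1, 80.5, 79.7 and 76.8 CPM in the edit-3 libraries, 82.5, 78.0, 87.2 and 76.8 CPM in those of K/VP.5 and 83.3, 73.2, 78.5 and 66.9 CPM in those of K562. Its ranges overlapped throughout, and K/VP.5 over K562 gave 0.10 with a 95% interval of -0.079 to 0.29. RECQL and RECQL5 had log2 fold changes between -0.16 and 0.088. POLQ, the polymerase of an end joining route used when recombination fails, had 52.0, 45.1, 53.03 and 51.6 CPM across edit-3, 53.3, 45.1, 53.1 and 52.6 CPM across K/VP.5 and 45.0, 45.2, 42.1 and 40.1 CPM across K562. K/VP.5 replicate 2 and edit-3 replicate 2 lay within the K562 range. POLQ passed in K/VP.5 over K562 (log2 fold change 0.24, SE 0.0804, adjusted p = 0.028) and in edit-3 over K562 (log2 fold change 0.23, SE 0.0805, adjusted p = 0.037), but the first call was lost in 5 of 8 fits that left out 1 library (K562 replicates 3 and 4 and K/VP.5 replicates 1, 3 and 4, each alone; adjusted p 0.068 to 0.084). The second was lost in 6 of 8 (edit-3 replicates 1, 3 and 4 and K562 replicates 2, 3 and 4; adjusted p 0.066 to 0.11). HELQ, a helicase that anneals strands, gave 0.10, -0.027 and 0.074 in the 3 comparisons and did not pass.

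**Figure D2:**
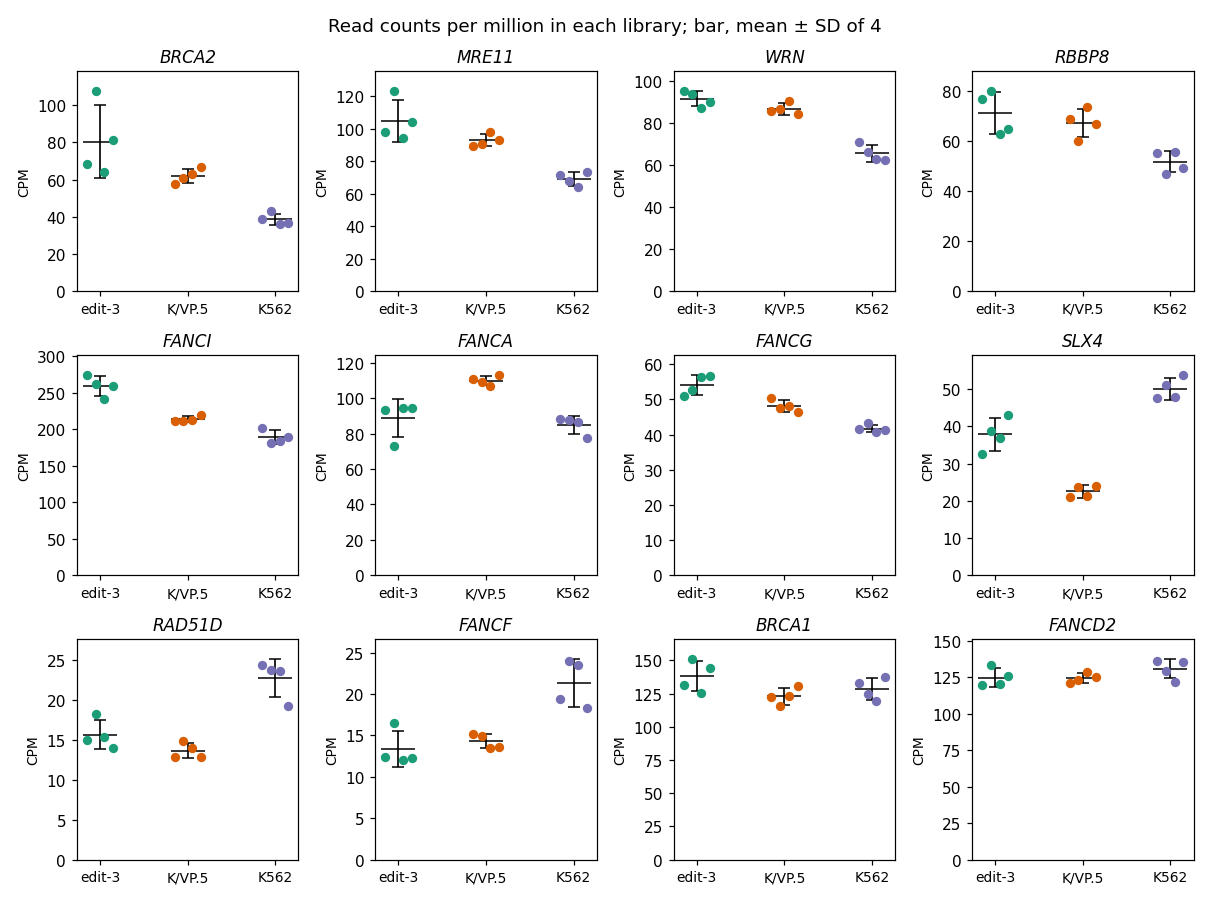
CPM (vertical axis, from 0) of 12 of the genes in every library of edit-3, K/VP.5 and K562; points are libraries and bars the mean ± SD of 4. The 4 K562 libraries of BRCA2, MRE11, WRN and RBBP8 lie below all others, those of SLX4, RAD51D and FANCF above all others, and those of BRCA1 and FANCD2 overlap with the sublines.

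Of the 7 genes of the Fanconi core complex, the ligase that marks FANCD2 and FANCI, FANCA, FANCG and FANCM rose and FANCF fell in K/VP.5 against K562, and FANCC, FANCE and FANCL did not pass. FANCA, a scaffold of the complex, had 93.5, 72.7, 94.5 and 94.4 CPM in the edit-3 libraries, 111, 109, 107 and 113 CPM in those of K/VP.5 and 88.1, 87.9, 86.4 and 77.5 CPM in those of K562. K/VP.5 lay above both other lines, which overlapped each other. FANCA rose in K/VP.5 over K562 (log2 fold change 0.37, SE 0.0854, adjusted p = 0.0031) and fell in edit-3 against K/VP.5 (log2 fold change -0.31, SE 0.0853, adjusted p = 0.016). It shares 23.6% of its exon bases with ZNF276 on the other strand, and ZNF276 rose by 0.33 in K/VP.5 over K562 (adjusted p = 0.01) and fell by 0.58 in edit-3 against K/VP.5 (adjusted p = 2.4e-04). FANCF, an adaptor of the complex (chr11:22622890-22625841, minus strand), had 12.4, 16.6, 12.1 and 12.3 CPM across edit-3, 15.2, 14.98, 13.5 and 13.6 CPM across K/VP.5 and 19.4, 24.0, 23.5 and 18.3 CPM across K562. Every K562 library was above every library of the sublines. FANCF fell in K/VP.5 against K562 (log2 fold change -0.57, SE 0.124, adjusted p = 0.0019) and in edit-3 against K562 (log2 fold change -0.68, SE 0.124, adjusted p = 0.00047).

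FANCG, the partner of FANCA, had 50.9, 52.6, 56.4 and 56.6 CPM in the edit-3 libraries, 50.3, 47.5, 48.1 and 46.5 CPM in those of K/VP.5 and 41.5, 43.3, 40.8 and 41.3 CPM in those of K562, and no ranges overlapped. FANCG rose in edit-3 over K562 (log2 fold change 0.37, SE 0.0649, adjusted p = 0.00029). Its rise in K/VP.5 over K562 (log2 fold change 0.20, SE 0.0649, adjusted p = 0.023) was lost without replicate 1 or 3 of either line (adjusted p 0.05 to 0.077). FANCM, the translocase that brings the complex to DNA, averaged 22.2 ± 1.11 CPM in edit-3, 27.0 ± 2.04 CPM in K/VP.5 and 21.9 ± 3.06 CPM in K562. Its rise in K/VP.5 over K562 (log2 fold change 0.30, SE 0.100, adjusted p = 0.03) was lost in 5 of 8 fits that left out 1 library (K562 replicates 2 and 4 and K/VP.5 replicates 1, 3 and 4; adjusted p 0.054 to 0.1), and edit-3 against K/VP.5 gave -0.28 (adjusted p = 0.055). FANCL, the ubiquitin ligase subunit itself, averaged 19.2 ± 1.68 CPM in edit-3, 21.6 ± 1.06 CPM in K/VP.5 and 18.8 ± 0.741 CPM in K562 and did not pass (K/VP.5 over K562 0.20, adjusted p = 0.081, and 0.045 with only the libraries of these lines in the fit). FANCC gave 0.22 in edit-3 over K/VP.5 (adjusted p = 0.057), and FANCE gave 0.21 (adjusted p = 0.14).

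FANCI and FANCD2 form 1 complex, the pair on which the ligase acts, yet only FANCI passed the test. FANCI had 274, 262, 242 and 259 CPM across edit-3, 211, 212, 213 and 220.0 CPM across K/VP.5 and 202, 182, 184 and 190.0 CPM across K562. The 3 lines did not overlap, with edit-3 highest and K562 lowest. FANCI rose in edit-3 over K/VP.5 (log2 fold change 0.28, SE 0.0615, adjusted p = 0.0041) and over K562 (log2 fold change 0.45, SE 0.0617, adjusted p = 3.1e-05). Its smaller rise in K/VP.5 over K562 (log2 fold change 0.18, SE 0.0616, adjusted p = 0.036) was lost in 7 of 8 fits that left out 1 library, all but the one without K562 replicate 1 (adjusted p 0.058 to 0.11). FANCD2 had 119.6, 133, 120.4 and 126 CPM in the edit-3 libraries, 121, 123, 129 and 126 CPM in those of K/VP.5 and 136, 129, 122 and 136 CPM in those of K562. Its ranges overlapped, and the 95% intervals of its log2 fold changes were -0.21 to 0.067 in K/VP.5 over K562, -0.14 to 0.14 in edit-3 over K/VP.5 and -0.20 to 0.068 in edit-3 over K562. The difference between the changes of the 2 genes was not tested. FAN1, a nuclease that binds ubiquitinated FANCD2, averaged 36.9 ± 2.16 CPM in edit-3, 36.3 ± 0.904 CPM in K/VP.5 and 30.5 ± 1.90 CPM in K562. It rose in K/VP.5 over K562 (log2 fold change 0.25, SE 0.0719, adjusted p = 0.013) and in edit-3 over K562 (log2 fold change 0.27, SE 0.0719, adjusted p = 0.0068). It shares 24.3% of its exon bases with MTMR10 on the other strand, which rose in K/VP.5 over K562 (log2 fold change 0.37, adjusted p = 0.047); its part in the FAN1 count was not tested. BRIP1, the helicase that binds BRCA1, ranged over 26.7 to 39.1 CPM in edit-3, 26.7 to 34.4 CPM in K/VP.5 and 28.0 to 41.6 CPM in K562 and did not pass in any comparison.

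The largest change of all 40 genes in K/VP.5 over K562, and in edit-3 over K/VP.5, was in SLX4, the scaffold that holds the nucleases MUS81-EME1, SLX1 and XPF-ERCC1. SLX4 (chr16:3581181-3611598, minus strand) had 32.4, 38.7, 36.95 and 43.2 CPM across edit-3, 21.1, 23.7, 21.2 and 24.1 CPM across K/VP.5 and 47.6, 51.2, 47.8 and 53.8 CPM across K562. The 3 lines did not overlap, with K562 highest, edit-3 between and K/VP.5 lowest. SLX4 was 2.22-fold lower in K/VP.5 than in K562 (log2 fold change -1.15, SE 0.0923, adjusted p = 1.6e-07). It was 1.68-fold higher in edit-3 than in K/VP.5 (log2 fold change 0.75, SE 0.0919, adjusted p = 2.8e-05) and 1.32-fold lower in edit-3 than in K562 (log2 fold change -0.40, SE 0.0907, adjusted p = 0.0023). MUS81, a nuclease that cuts branched DNA, had 46.8, 54.2, 54.3 and 50.4 CPM in the edit-3 libraries, 54.6, 47.7, 57.8 and 53.4 CPM in those of K/VP.5 and 57.8, 59.4, 69.2 and 59.6 CPM in those of K562. The edit-3 libraries all lay below those of K562, and MUS81 fell in that comparison (log2 fold change -0.26, SE 0.0842, adjusted p = 0.024); the call was lost without edit-3 replicate 1 or K562 replicate 3 (adjusted p 0.063 and 0.086). MUS81 shares 13.9% of its exon bases with CFL1 on the other strand, which averaged 413 CPM in edit-3 and 475 CPM in K562 and fell in that comparison (log2 fold change -0.20, adjusted p = 0.019); its part in the MUS81 count was not tested. EME1, the partner of MUS81, averaged 14.0 ± 2.22 CPM in edit-3, 14.1 ± 1.31 CPM in K/VP.5 and 12.9 ± 1.72 CPM in K562. GEN1, a resolvase that acts without SLX4, averaged 31.9 ± 2.78 CPM in edit-3, 34.1 ± 1.49 CPM in K/VP.5 and 36.4 ± 2.14 CPM in K562. Neither passed in any comparison, though GEN1 did in edit-3 over K562 with the replicate number as a block (log2 fold change -0.19, adjusted p = 0.036). EME1 shares 16.4% of its exon bases with LRRC59 on the other strand. LRRC59 averaged 346 CPM in edit-3, 412 CPM in K/VP.5 and 344 CPM in K562, and its part in the EME1 count was not tested.

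In K/VP.5 and K562, libraries with the same replicate number deviated from their lines together, with correlations of 0.31, 0.15, 0.14 and 0.51. With the replicate number as a block, 13 of the 40 genes were higher and 4 lower in K/VP.5 over K562, beside 42% of all tested genes called in that fit (21.1% higher and 20.9% lower). EXO1 (log2 fold change 0.19, adjusted p = 0.023), RAD54L and MUS81 (-0.20, adjusted p = 0.036) passed in that edgeR fit and not without the block.

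Several of the genes had changes close to those of the genes around them. For each, the 20 nearest tested genes on its chromosome were taken. In K/VP.5 over K562 the neighbours of BRCA2 had a median log2 fold change of 0.66, and 18 of 20 were above 0, beside 0.68 for BRCA2 itself. Those of MRE11 had a median of 0.45 (18 of 20 above 0) and those of FANCA 0.37 (17 of 20). The neighbours of RAD51D had a median of -0.58, with 18 of 20 below 0. The fall of SLX4 was larger than that of its surroundings, whose median was -0.20 with 14 of 20 below 0; over the 10 nearest genes it was -0.36. RAD54B, too, lay farther from 0 than its neighbours' median of 0.22. The neighbours of FANCF had a median of -0.12, which was 0.040 over the 10 nearest genes, and for FANCI the median of 0.011 was -0.055 over the 10 nearest.

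In edit-3 over K/VP.5, all 20 neighbours of SLX4 were above 0, with a median of 0.53 beside 0.75 for SLX4. The neighbours of FANCA had a median of -0.48, and 18 of 20 were below 0. FANCI went the other way from its neighbours, whose median was -0.20 with 5 of 20 above 0. Edit-3 against K562 set SLX4 apart from its neighbours, at -0.40 beside a median of 0.30, with 5 of 20 below 0. XRCC3, at -0.087 in that comparison, had no neighbour below 0 and a neighbour median of 0.47. Among the genes called, 13 of 14 in K/VP.5 over K562, 3 of 4 in edit-3 over K/VP.5 and 8 of 13 in edit-3 over K562 had the sign of their neighbours' median, against 70.4%, 70.4% and 70.5% of all called genes. With the 10 nearest genes in place of 20 these counts were 11 of 14, 3 of 4 and 8 of 13, against 72.2%, 70.8% and 72.3%. Across the 40 genes, Pearson's r between a gene and its neighbours' median was 0.68, 0.55 and 0.47 in the 3 comparisons, against 0.29, 0.29 and 0.27 across 18222 tested genes; with 10 neighbours it was 0.60, 0.53 and 0.34, against 0.32, 0.32 and 0.31. The 40 genes and all tested genes were not matched for expression level, and the part of level in these correlations was not tested. Genes near each other on a chromosome are not independent, and these values describe the libraries with no test.

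**Figure D3:**
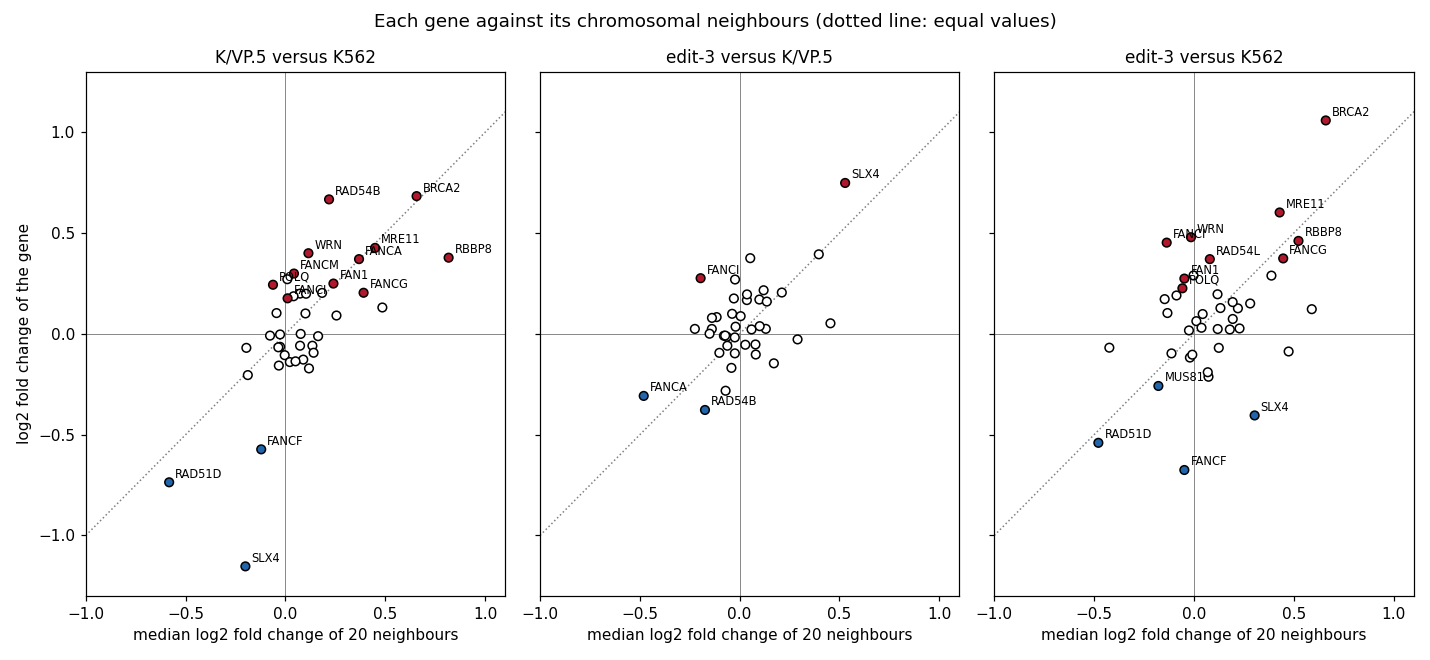
Log2 fold change of each of the 40 genes (vertical) against the median log2 fold change of its 20 nearest tested genes (horizontal), in K/VP.5 versus K562, edit-3 versus K/VP.5 and edit-3 versus K562; filled points passed the test (red higher, blue lower) and are named. BRCA2, MRE11, FANCA and RAD51D lie near the dotted line of equal values on the left, where SLX4 lies far below it.

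Levels between genes were compared as RPKM, CPM per kilobase of exon in GENCODE release 29. EXO1 was the highest of the 40 in K562, at 30.1 ± 3.54 RPKM in edit-3, 30.4 ± 1.86 RPKM in K/VP.5 and 26.7 ± 3.32 RPKM in K562. FANCI was the highest in edit-3, at 33.4 ± 1.71 RPKM, against 27.6 ± 0.520 RPKM in K/VP.5 and 24.4 ± 1.16 RPKM in K562. RAD54B was the lowest in K562, at 0.884 ± 0.121 RPKM in edit-3, 1.15 ± 0.0599 RPKM in K/VP.5 and 0.723 ± 0.0657 RPKM in K562, next to RAD51B and RAD50. RAD54B and RAD50 share 59.1% and 79.7% of their exon bases with another gene on the same strand, so their places in this order are uncertain. BRCA2 had 6.56 ± 1.60 RPKM in edit-3, 5.05 ± 0.312 RPKM in K/VP.5 and 3.15 ± 0.250 RPKM in K562, below its partner PALB2 in each line (8.39 ± 1.06 RPKM in edit-3, 8.45 ± 0.247 RPKM in K/VP.5 and 7.35 ± 0.322 RPKM in K562). SLX4 had 4.40 ± 0.516 RPKM in edit-3, 2.62 ± 0.188 RPKM in K/VP.5 and 5.83 ± 0.344 RPKM in K562. Between most neighbours in the order of levels the mean ± SD ranges overlapped.

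**Figure D4:**
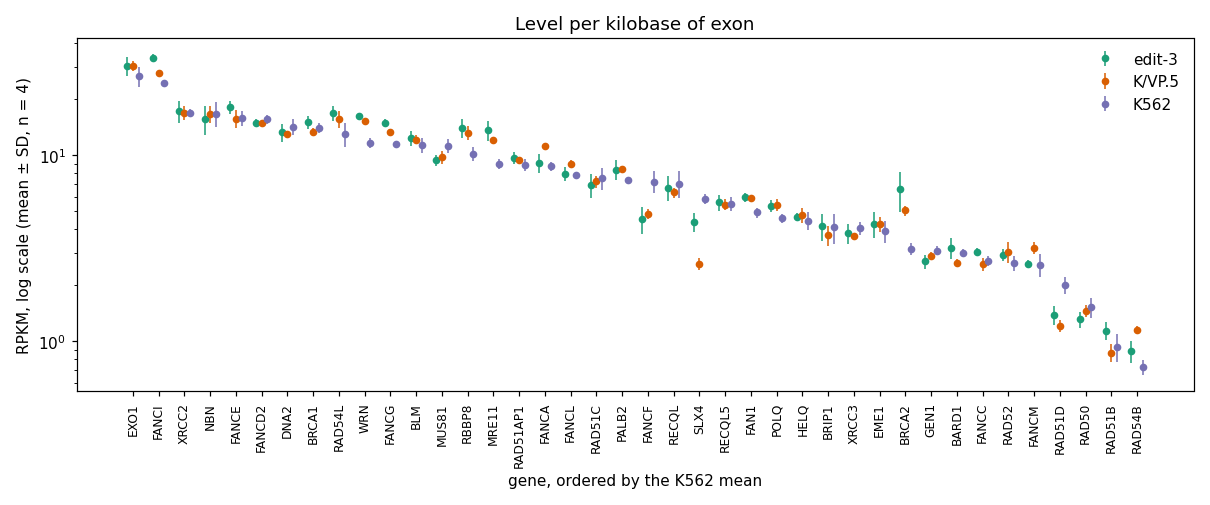
Level of each of the 40 genes in RPKM (log axis), as the mean ± SD of 4 libraries in edit-3, K/VP.5 and K562, ordered by the K562 mean. EXO1 and FANCI stand at the left and RAD51B and RAD54B at the right; BRCA2 and SLX4 show the widest gaps between lines.

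The spread between libraries differed by line. The median coefficient of variation over the 40 genes was 10.4% in edit-3, 6.23% in K/VP.5 and 8.39% in K562, and the highest was 24.4%, of BRCA2 in edit-3. Edit-3 replicate 2 held the highest edit-3 value for 19 of the 40 genes, against 33.5% of all tested genes. The lowest edit-3 value was in replicate 3 for 20 of the 40 genes, and the share over all tested genes was not counted.

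A list of 50 other genes of recombination and the Fanconi pathway, 49 of them tested (RAD51AP2 was too low), had 5 higher and 11 lower in K/VP.5 over K562 (32.7%, median log2 fold change -0.055). It had 1 higher and 4 lower in edit-3 over K/VP.5 (10.2%, median 0.013) and 5 higher and 12 lower in edit-3 over K562 (34.7%, median -0.074). ERCC4, whose product XPF is a nuclease that binds SLX4, had 9.05, 11.6, 8.69 and 10.0 CPM across edit-3, 27.4, 27.7, 29.5 and 28.8 CPM across K/VP.5 and 20.1, 17.5, 19.4 and 17.2 CPM across K562. No ranges overlapped, with K/VP.5 highest and edit-3 lowest. ERCC4 rose in K/VP.5 over K562 (log2 fold change 0.61, SE 0.0987, adjusted p = 0.00017) where SLX4 fell. It fell in edit-3 against K/VP.5 (log2 fold change -1.52, SE 0.101, adjusted p = 4.7e-08) where SLX4 rose, and fell in edit-3 against K562 (log2 fold change -0.91, SE 0.101, adjusted p = 3.9e-06). Both genes lie on the short arm of chromosome 16, ERCC4 at chr16:13920157-13952345 on the plus strand.

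NABP2, a single-strand binding protein of early break signalling, had 21.9, 20.4, 21.5 and 22.1 CPM in the edit-3 libraries, 32.2, 32.5, 31.1 and 27.7 CPM in those of K/VP.5 and 65.3, 59.9, 68.3 and 55.0 CPM in those of K562. It fell in K/VP.5 against K562 (log2 fold change -1.01, SE 0.0829, adjusted p = 2.1e-07), in edit-3 against K/VP.5 (log2 fold change -0.52, SE 0.0835, adjusted p = 3e-04) and in edit-3 against K562 (log2 fold change -1.53, SE 0.0844, adjusted p = 2.3e-09). SFR1, which forms a complex that assists strand exchange, averaged 3.17 ± 0.425 CPM in edit-3, 2.995 ± 0.377 CPM in K/VP.5 and 7.37 ± 1.49 CPM in K562. It fell in K/VP.5 against K562 (log2 fold change -1.29, SE 0.164, adjusted p = 1.8e-05) and in edit-3 against K562 (log2 fold change -1.21, SE 0.164, adjusted p = 2.8e-05). BRCC3, the deubiquitinase of a BRCA1 complex, averaged 31.2 ± 4.59 CPM in edit-3, 36.0 ± 1.48 CPM in K/VP.5 and 58.4 ± 8.27 CPM in K562 and fell in K/VP.5 against K562 (log2 fold change -0.70, SE 0.113, adjusted p = 0.00016). RMI2, a subunit of the BLM complex, rose in K/VP.5 over K562 (log2 fold change 0.83, SE 0.167, adjusted p = 0.0013); its rise in edit-3 over K562 (0.45, adjusted p = 0.046) was lost in 5 of 8 fits that left out 1 library (edit-3 replicates 2 and 4 and K562 replicates 1, 2 and 3). MAD2L2, a subunit of polymerase zeta and shieldin, rose in K/VP.5 over K562 (log2 fold change 0.42, SE 0.103, adjusted p = 0.0049) and in edit-3 over K562 (0.34, adjusted p = 0.016), the second call being lost without edit-3 replicate 4 or K562 replicate 1 or 3.

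PSMC3IP, a cofactor of strand exchange, rose in edit-3 over K562 (log2 fold change 0.44, SE 0.108, adjusted p = 0.0042); its rise over K/VP.5 (0.36, adjusted p = 0.025) was lost in 5 of 8 fits that left out 1 library (edit-3 replicates 3 and 4 and K/VP.5 replicates 1, 2 and 3). HELB, a helicase that limits resection, fell in edit-3 against K/VP.5 (log2 fold change -0.47, SE 0.138, adjusted p = 0.024), a call lost in 5 of 8 such fits (edit-3 replicates 1, 3 and 4 and K/VP.5 replicates 1 and 3).

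Many recombination genes are known to be co-regulated with the cell cycle, so lists of S phase and G2/M genes were set beside them. Of 38 S phase genes, 6 were higher and 5 lower in K/VP.5 over K562 (median log2 fold change -0.015), 4 and 2 in edit-3 over K/VP.5 (0.065) and 9 and 7 in edit-3 over K562 (0.095); that is 28.9%, 15.8% and 42.1% of the list. The S phase median in edit-3 over K562 was close to that of the 40 genes (0.10), and its part in their values was not tested. Of 50 tested G2/M genes, 6 were higher and 11 lower in K/VP.5 over K562 (-0.094), 4 and 4 in edit-3 over K/VP.5 (-0.047) and 7 and 14 in edit-3 over K562 (-0.038), or 34%, 16% and 42%. The summed S phase level was 5653 ± 436 CPM in edit-3, 5488 ± 181 CPM in K/VP.5 and 5432 ± 315 CPM in K562. The summed G2/M level was 7460.3 ± 299 CPM in edit-3, 7474 ± 137 CPM in K/VP.5 and 7879 ± 233 CPM in K562.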

How the data were processed

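RNA sequencing counts of 12 libraries, 4 each of edit-3, K/VP.5 and K562, were analysed; lines were taken from the source names, which a description that calls all libraries parental contradicts. The authors deposited raw read counts per Ensembl gene. Besides the genes so named in the Results, RECQL shares 41.5% of its exon bases with PYROXD1 and FANCL 18.7% with VRK2, both on the other strand. RECQL5 shares 17.3% with SMIM5 and FANCF 11.3% with GAS2, also on the other strand. RAD51D shares 8.01% with RAD51L3-RFFL and RAD52 5.56% with AC004803.1, both on the same strand. FANCI shares 5.9% with POLG on the other strand. Smaller shares are not listed. The submitters' processing notes name HISAT2 2.1.0, featureCounts, Subread 1.5.1 and GRCh38; the annotation release, strand setting and handling of reads with several matches were not given in the sources used here, so overlapping genes can share or lose reads. Libraries held 25.3 M to 37.1 M reads, and no 2 replicates were duplicates (chi-square per degree of freedom 6.68 to 67.4).

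In R 4.3.3, edgeR 4.0.16 (TMM scaling, filterByExpr, robust quasi-likelihood test, 1 coefficient per line, all 12 libraries) was fitted to the deposited counts of 18286 of 58395 genes (99.89% of reads), with Benjamini-Hochberg adjustment over all of them and a threshold of 0.05. SE is the size of the log2 fold change divided by the square root of F, and 95% intervals use the test's degrees of freedom. The script was tested on simulated data. Exon lengths and positions came from GENCODE release 29, also GRCh38. Replicate numbers from the titles paired K/VP.5 with K562 libraries, as judged from the data (each pair's correlation over 0.1). They paired those of edit-3 only in part. Edit-3 replicates 1 and 4 gave 0.36 and 0.31 with K/VP.5 and 0.47 and 0.31 with K562, and replicates 2 and 3 gave -0.11 to 0.050. Alternatives were DESeq2 1.42.0, its size factors in edgeR, no filter, a filter of 1 CPM in 4 libraries, only the 2 lines compared, the replicate block, 10 in place of 20 neighbours, and each library left out.

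The 40 genes and the other lists were chosen with earlier results of these data known. Values in every library are given for BRCA1, BRCA2, PALB2, BARD1, FANCD2, FANCI, BLM and RBBP8 and for up to 6 called genes in each direction per comparison, and other pathway genes are named for up to 3 in each direction; 1 gene of that list is not reported here.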

Additional observations from a re-analysis of the deposited data

Results flagged for a closer look

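In 7 of 123 groups of 4 libraries, the highest or lowest library stood apart from the other 3 by more than Dixon's 95% critical value; chance alone flags about 5% of groups. FANCA had 72.7 CPM in edit-3 replicate 2, against 93.5 to 94.5 CPM in the other edit-3 libraries, and 77.5 CPM in K562 replicate 4, against 86.4 to 88.1 CPM in the other K562 libraries. RAD51D had 19.2 CPM in K562 replicate 4, against 23.7 to 24.4 CPM in the others. RAD52 had 9.50 CPM in the same library, against 11.3 to 11.6 CPM. POLQ had 45.1 CPM in K/VP.5 replicate 2, against 52.6 to 53.3 CPM in the others. FANCF had 16.6 CPM in edit-3 replicate 2, against 12.1 to 12.4 CPM. MUS81 had 69.2 CPM in K562 replicate 3, against 57.8 to 59.6 CPM. The falls of RAD51D and FANCF against K562, and the fall of FANCA in edit-3 against K/VP.5, passed with any 1 library left out; the calls of POLQ and MUS81 against K562 were lost without some of the libraries.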

How the results depend on the processing

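The counts of the 40 genes called moved most where few were called. In edit-3 over K/VP.5 the number higher was 2, against 7 with DESeq2, 6 with the stricter filter and 5 with the replicate block, and 2 to 5 with 1 library left out (5 without edit-3 replicate 1 and 4 without edit-3 replicate 3). BRCA2, BARD1, RAD51B, FANCC and FANCG (higher) and FANCM (lower) lay just above the threshold there and passed under some of these. The number lower was 2, against 1 with no filter and 1 to 2 with 1 library left out (1 without edit-3 replicates 3 and 4 and K/VP.5 replicates 1, 3 and 4, each alone). In K/VP.5 over K562 the number higher was 11, against 7 with no filter, where FANCI, FANCG, POLQ and FAN1 were lost, and 7 to 11 with 1 library left out (7 without K/VP.5 replicate 1). With only the 2 lines compared, PALB2 and FANCL passed as higher there (adjusted p 0.018 and 0.045). The number lower there stayed at 3, with 4 under the block. In edit-3 over K562 the counts were 7 to 9 higher and 3 to 4 lower with 1 library left out. Calls over all tested genes moved as well with 1 library left out. In edit-3 over K/VP.5 they were 1760 to 2594 higher (2368 in the main fit) and 1594 to 2171 lower (1941). In K/VP.5 over K562 they were 2985 to 3358 higher (3349) and 2834 to 3212 lower (3339). In edit-3 over K562 they were 3322 to 3996 higher (3762) and 3107 to 3557 lower (3404). For DESeq2 and the filters the calls over all genes are not given here, so those counts of the 40 genes have no share beside them. SLX4, BRCA2, RAD51D, FANCF, MRE11, RBBP8 and WRN kept their calls and signs against K562 under every alternative run.

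The replicate block uses a number that paired the edit-3 libraries only in part (correlations -0.073 to 0.36 with K/VP.5 and -0.11 to 0.47 with K562). It gave 5 higher and 3 lower in edit-3 over K/VP.5 (30% of all tested genes called) and 10 higher and 5 lower in edit-3 over K562 (44.4%). EXO1 (log2 fold change 0.17, adjusted p = 0.036) and GEN1 (-0.19, adjusted p = 0.036) passed in edit-3 over K562 in that edgeR fit. The block ended no call of the 40 genes. Changes of sign were confined to genes near 0 that were not called. With 1 library left out, log2 fold changes ran over FANCE -0.087 to 0.034, NBN -0.079 to 0.087, RAD51C -0.12 to 0.013, RECQL5 -0.055 to 0.038 and XRCC2 -0.040 to 0.054 in K/VP.5 versus K562; BLM -0.040 to 0.059, DNA2 -0.046 to 0.087, EME1 -0.11 to 0.060, EXO1 -0.098 to 0.026, FAN1 -0.020 to 0.059, FANCD2 -0.033 to 0.019, HELQ -0.11 to 0.0050, PALB2 -0.090 to 0.057, POLQ -0.090 to 0.032, RAD51AP1 -0.014 to 0.070, RAD51C -0.15 to 0.0092, RAD52 -0.15 to 0.010, RECQL5 -0.011 to 0.10, XRCC2 -0.072 to 0.074 and XRCC3 -0.0057 to 0.14 in edit-3 versus K/VP.5; BRIP1 -0.062 to 0.15, FANCL -0.024 to 0.082, FANCM -0.068 to 0.10, RECQL -0.15 to 0.045, RECQL5 -0.022 to 0.090 and XRCC2 -0.073 to 0.074 in edit-3 versus K562. FANCD2 in edit-3 over K/VP.5 was 8.5e-04, against -0.00339 with DESeq2, -0.00356 with its size factors in edgeR, -0.017 with no filter, -0.013 with only the 2 lines and -1.47e-04 with the block. EME1 and PALB2 gave 0.0041 and 0.00288 there with the stricter filter. In K/VP.5 over K562, NBN gave 0.0088 with no filter, 0.0072 with only the 2 lines and 0.0015 with the block, XRCC2 0.012 and 0.0087 with the first 2, and FANCE 0.0018 with no filter. The cause of these shifts was not tested. No scaling moved the median of all genes by more than 0.022. The neighbours' medians moved for 55 of 120 with 10 neighbours in place of 20; among those of called genes in K/VP.5 over K562, FANCF and FANCI turned sign. RAD54B and RAD51B had the fewest reads of the 40 genes, and the part of depth in their values was not tested.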
